A study of Mus musculus with 24 samples.

Results

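The 10 immediate early and stress response genes followed here in mouse lung were Fos, Fosb, Jun, Junb, Egr1, Dusp1, Atf3, Ier2, Gadd45g and Nr4a1. Every probe set annotated to one of these genes alone was taken, which gave 11 probe sets for the 10 genes, all on 1 of the 2 array types used (set A). All 10 genes passed the filter on low signal, out of 14477 genes represented in the tests. Jun had 2 probe sets, and the other genes had 1 each. The samples were total RNA of lung tissue in 4 groups of 3 samples: IL-13 KO mice treated with HDM, IL-13 KO mice treated with PBS, wild-type mice treated with HDM and wild-type mice treated with PBS. IL-13 KO mice lack interleukin 13, a cytokine of type 2 immunity, HDM commonly stands for house dust mite, an inhaled allergen, and PBS is phosphate-buffered saline, the vehicle. The sources used here did not give the dose, route, schedule or time of sampling, nor the strain background, age or sex of the mice. Nothing in the labels ties the 3 samples of each group to separate mice, so p-values here reflect only how far these samples scattered, which may be technical.

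Immediate early genes are transcribed within minutes of a stimulus without new protein synthesis, and their transcripts are short-lived. Growth factor, cytokine and stress signals reach them through the MAP kinase, SRF and CREB pathways, and the Fos and Jun proteins they encode pair to form the AP-1 transcription factor. In lung, AP-1 and its partners act in epithelium, endothelium and leukocytes.

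The promoters of the called genes Dusp1, Jun, Atf3 and Gadd45g are shown because these genes moved in different directions after HDM, and that of Fos because Fos did not pass the test in any comparison. The sequences are RefSeq's (build GRCm38.p6), the 250 bases before the start of transcription, written 5′ to 3′ on the gene's strand, and capitals mark the core of the cAMP response element (TGACG, or CGTCA on the other strand) to which CREB and ATF proteins bind. The windows lie at chr17:26508473-26508722 (minus strand, Dusp1), chr4:95052223-95052472 (minus strand, Jun), chr1:191183334-191183583 (minus strand, Atf3), chr13:51846425-51846674 (plus strand, Gadd45g) and chr12:85473640-85473889 (plus strand, Fos).
Dusp1: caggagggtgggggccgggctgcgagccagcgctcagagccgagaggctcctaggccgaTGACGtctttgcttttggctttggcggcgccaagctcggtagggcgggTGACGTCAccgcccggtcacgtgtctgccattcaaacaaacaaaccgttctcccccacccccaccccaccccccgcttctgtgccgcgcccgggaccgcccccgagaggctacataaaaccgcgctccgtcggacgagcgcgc
Jun: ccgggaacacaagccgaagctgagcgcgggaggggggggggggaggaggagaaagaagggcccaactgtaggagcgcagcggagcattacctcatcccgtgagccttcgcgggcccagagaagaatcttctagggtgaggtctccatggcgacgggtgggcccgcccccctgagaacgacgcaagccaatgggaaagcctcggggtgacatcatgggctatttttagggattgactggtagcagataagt
Atf3: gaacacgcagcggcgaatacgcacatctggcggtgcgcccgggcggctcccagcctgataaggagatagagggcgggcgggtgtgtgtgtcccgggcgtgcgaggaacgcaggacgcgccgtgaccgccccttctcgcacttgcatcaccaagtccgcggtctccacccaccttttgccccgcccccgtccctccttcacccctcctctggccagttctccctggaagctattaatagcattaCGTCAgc
Gadd45g: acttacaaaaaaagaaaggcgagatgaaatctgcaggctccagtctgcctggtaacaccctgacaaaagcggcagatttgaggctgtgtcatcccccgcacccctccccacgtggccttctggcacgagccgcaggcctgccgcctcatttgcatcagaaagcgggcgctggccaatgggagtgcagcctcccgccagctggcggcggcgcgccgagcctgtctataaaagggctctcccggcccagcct
Fos: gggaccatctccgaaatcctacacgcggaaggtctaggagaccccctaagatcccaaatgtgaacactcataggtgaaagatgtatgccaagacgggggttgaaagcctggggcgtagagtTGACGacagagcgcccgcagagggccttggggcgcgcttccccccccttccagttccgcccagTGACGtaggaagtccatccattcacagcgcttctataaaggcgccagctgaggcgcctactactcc

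Promoters were found for 8 of the 10 genes, all except Egr1 and Ier2. The core TGACG stood on either strand in 6 of these 8, all except Jun and Gadd45g, against 17.8% of the 32851 mouse promoters of the same length. The whole element TGACGTCA, which holds the core on both strands, stood in 1 of 8, at 143 bases before the start of Dusp1, against 1.55% of all promoters. The TATA box TATAAA stood in Fos and Gadd45g, against 12.4% of all promoters. The GC box GGGCGG stood in 6 of 8, against 32.7%. The GC content of the 8 windows was 58.4% to 74.4%, above the median of 52.4% over all promoters, and the part of base composition in these counts was not tested. The Ets core CCGGAA was found in Nr4a1 alone (12% of all promoters), the NF-kappaB site in Fos and Fosb (3.9%), and neither the AP-1 site TGACTCA (4.46%) nor the CArG box bound by SRF (1.47%) was found in any of the 8 windows. A match of letters is a description of the window and not a bound site. Nor does a missing match show that a gene lacks the site. Bases farther from the start and variants of TGACTCA were not searched, and Egr1 and Ier2 had no window to search.

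Signals are the deposited intensities, scaled by the authors to a common trimmed mean of 150 on each array, and log2 changes are of the signal plus a pseudocount of 7, which understates the change of low genes. Median signal over the set A arrays was 69.5 to 77.7, and replicates of a group correlated at a Spearman rho of 0.962 to 0.980 across set A probe sets. The lung label was borne out by its markers: surfactant protein C averaged 5459 in IL-13 KO HDM, 5206 in IL-13 KO PBS, 5627 in wild-type HDM and 5704 in wild-type PBS samples. Skeletal muscle markers were high in 3 samples, wild-type HDM replicates 1 and 2 and wild-type PBS replicate 2, with a summed signal of up to 4634 in wild-type HDM and 2542 in wild-type PBS samples, against at most 568 in the IL-13 KO samples. RNA integrity was read from the actin control probes, 5′ signal over 3′ signal, whose ratio was 0.464 to 0.656 in IL-13 KO HDM samples, all below the 0.748 to 0.854 of IL-13 KO PBS samples, and was 0.695 to 0.832 in wild-type HDM against 0.409 to 0.898 in wild-type PBS samples.

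In IL-13 KO lungs, Dusp1 and Jun were lower and Atf3 was higher after HDM than after PBS. In wild-type lungs, Dusp1, Jun and Ier2 were lower and Atf3 and Gadd45g higher after HDM, while the other 5 genes, Fos, Fosb, Junb, Egr1 and Nr4a1, did not pass the test. The genes thus did not move as a block. In IL-13 KO the changes past the test ran from 2.36-fold lower (Jun, by the brighter of its 2 probe sets) to 3.35-fold higher (Atf3). By the other probe set Jun was 1.64-fold lower there. In wild type the changes past the test ran from 2.25-fold lower (Dusp1) to 3.61-fold higher (Gadd45g). By limma with Benjamini-Hochberg adjustment over 31496 probe sets at 0.05, 1 of 10 genes was higher and 2 were lower in IL-13 KO, where 5.65% of all 14477 genes were higher and 5.3% lower. In wild type, 2 of 10 were higher and 3 lower, where 5.35% of all genes were higher and 5.14% lower. The 10 genes were chosen with earlier results of these data known, so these shares describe them and do not test them as a set. The median log2 change of the 10 genes was -0.08 in IL-13 KO and -0.24 in wild type, beside 0.0074 and -0.0031 over all genes.

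**Figure D1:**
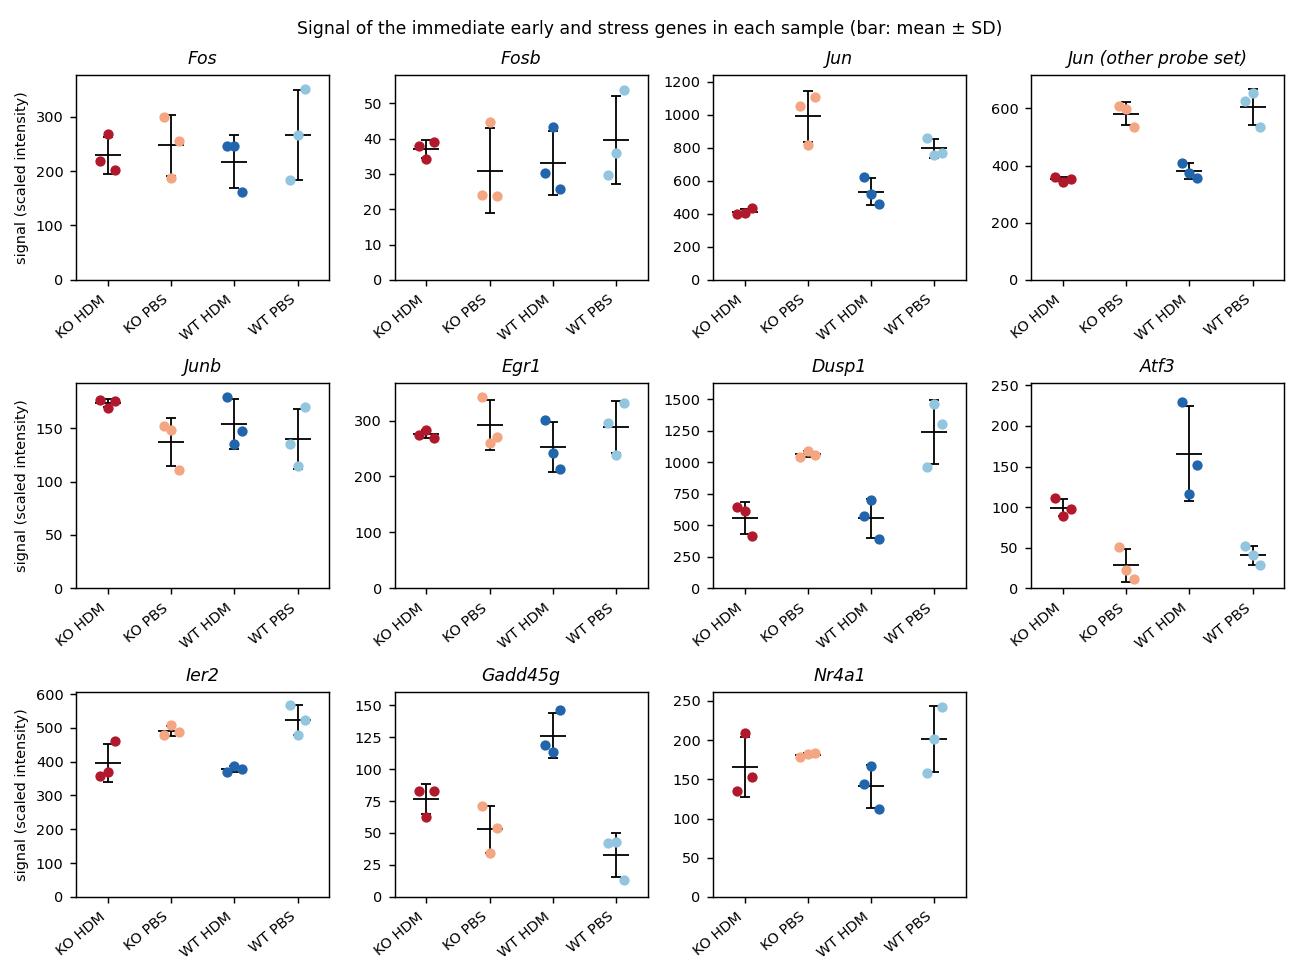
Signal (scaled intensity, linear axis from 0) of the 11 probe sets in each of the 12 samples, by group, with a bar at the mean and whiskers of 1 SD (n = 3). Jun and Dusp1 lie lower and Atf3 higher in the HDM samples of both genotypes without overlap, Gadd45g is highest in wild-type HDM samples (113 to 146), and the groups of Fos, Fosb, Egr1 and Nr4a1 overlap.

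Dusp1 encodes a phosphatase of the nucleus that switches off MAP kinases, a feedback inhibitor that is itself induced by stress and by glucocorticoids. Its gene lies at chr17:26505591-26508472. Its signal was 649.9, 614 and 414 in IL-13 KO HDM lungs, against 1046, 1089.8 and 1063 in IL-13 KO PBS lungs. It was 574, 700.4 and 396 in wild-type HDM lungs, against 967, 1464 and 1302 in wild-type PBS lungs. In both genotypes every HDM sample lay below every PBS sample, and replicate 3 was the lowest of its HDM group in each. The log2 change was -0.95 ± 0.22 in IL-13 KO (SE, 1.93-fold lower, limma adjusted p = 0.019) and -1.17 ± 0.22 in wild type (SE, 2.25-fold lower, limma adjusted p = 0.00612). The IL-13 KO call was lost without HDM replicate 3 and without each PBS replicate in turn (limma adjusted p 0.0531 to 0.0807), and the wild-type call was kept in all 12 fits that each left out 1 sample.

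Jun, which encodes the AP-1 subunit c-Jun and lies at chr4:95049036-95052222, was lower after HDM by both of its probe sets in both genotypes. The brighter probe set read 399, 405 and 434 in IL-13 KO HDM lungs, against 1049.8, 817 and 1109 in IL-13 KO PBS lungs. It read 621, 518 and 459.9 in wild-type HDM lungs, against 861, 757 and 770.2 in wild-type PBS lungs. The 3 IL-13 KO HDM samples were the lowest of all 12, and no HDM sample reached a PBS sample of its genotype. The log2 change was -1.24 ± 0.14 in IL-13 KO (SE, 2.36-fold lower, limma adjusted p = 0.000209) and -0.58 ± 0.14 in wild type (SE, limma adjusted p = 0.0235). The IL-13 KO call of this probe set was kept in all 12 fits that each left out 1 sample, and the wild-type call was lost without HDM replicate 2, HDM replicate 3 or PBS replicate 1 (limma adjusted p 0.0705, 0.102 and 0.0774).

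The other Jun probe set read 359, 344 and 354 in IL-13 KO HDM lungs, against 609, 599 and 537 in IL-13 KO PBS lungs. It read 409.8, 374 and 358 in wild-type HDM lungs, against 627, 655 and 535 in wild-type PBS lungs. By this probe set the HDM samples of both genotypes lay between 344 and 409.8 and the PBS samples between 535 and 655. Its log2 change was -0.71 ± 0.11 in IL-13 KO (SE, limma adjusted p = 0.00198) and -0.66 ± 0.11 in wild type (SE, limma adjusted p = 0.00305), and both calls were kept whichever sample was left out.

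Ier2 encodes a nuclear protein of the immediate early response. Its signal was 359, 369 and 461 in IL-13 KO HDM lungs, against 478, 508 and 488 in IL-13 KO PBS lungs. It was 370.1, 387 and 377 in wild-type HDM lungs, against 566, 479 and 524 in wild-type PBS lungs. HDM samples lay below PBS samples in both genotypes, narrowly so in IL-13 KO because of HDM replicate 3. The log2 change was -0.31 ± 0.12 in IL-13 KO (SE, limma adjusted p = 0.126, 95% interval -0.57 to -0.06) and -0.46 ± 0.12 in wild type (SE, 1.37-fold lower, limma adjusted p = 0.032). The wild-type call was lost in 5 of the 12 fits that left out 1 sample, those without HDM replicate 1, 2 or 3 or without PBS replicate 1 or 3 (limma adjusted p 0.0709 to 0.0992).

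Atf3, a stress-induced repressor of the ATF/CREB family whose gene lies at chr1:191170296-191183333, was higher after HDM in both genotypes. Its signal was 111, 89.6 and 97.7 in IL-13 KO HDM lungs, against 51.0, 23.2 and 11.1 in IL-13 KO PBS lungs. It was 229.7, 116 and 152 in wild-type HDM lungs, against 51.9, 41.0 and 29.0 in wild-type PBS lungs. The groups did not overlap, but some PBS samples were below the signal of 32 that served as the limit for a probe set's mean. The mean of the IL-13 KO PBS samples (28.4) was below this limit too, and that of the wild-type PBS samples was 40.6. The HDM samples thus helped Atf3 past the filter, and the size of the change rests on the low PBS values. The log2 change was 1.74 ± 0.38 in IL-13 KO (SE, 3.35-fold higher, limma adjusted p = 0.013) and 1.83 ± 0.38 in wild type (SE, 3.57-fold higher, limma adjusted p = 0.01). Over the alternatives tried the log2 change was 1.17 to 2.18 in IL-13 KO and 1.42 to 2.05 in wild type, and both calls were kept whichever sample was left out.

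Gadd45g, one of the growth arrest and DNA damage inducible genes, encodes an activator of the p38 and JNK branches of MAP kinase signalling and lies at chr13:51846675-51848475. Its signal was 82.9, 62.7 and 83.2 in IL-13 KO HDM lungs, against 71.1, 34.2 and 53.5 in IL-13 KO PBS lungs. It was 119, 113 and 146 in wild-type HDM lungs, against 42.3, 43.0 and 13.0 in wild-type PBS lungs. IL-13 KO HDM replicate 2 was below IL-13 KO PBS replicate 1, while the wild-type groups lay far apart. In IL-13 KO the log2 change was 0.51 ± 0.34 and did not pass the test (SE, limma adjusted p = 0.418, 95% interval -0.23 to 1.26). In wild type it was 1.85 ± 0.34 (SE, 3.61-fold higher, limma adjusted p = 0.0056), a call kept in all 12 fits that left out 1 sample.

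The other AP-1 genes did not pass the test in any comparison. Fos, whose product pairs with Jun proteins, had a signal of 219, 268 and 201 in IL-13 KO HDM lungs, against 299, 188 and 256 in IL-13 KO PBS lungs. It read 245, 246 and 161 in wild-type HDM lungs, against 183, 266 and 350.4 in wild-type PBS lungs. Both pairs of groups overlapped, and the 95% interval of the log2 change was -0.63 to 0.45 in IL-13 KO and -0.80 to 0.28 in wild type. Fosb, a close relative of Fos, was dim, with group means of 37.1 ± 2.46 in IL-13 KO HDM, 30.9 ± 12.1 in IL-13 KO PBS, 33.1 ± 9.17 in wild-type HDM and 39.7 ± 12.5 in wild-type PBS samples (SD, n = 3 each), close to the limit of 32. Its 95% interval was -0.34 to 0.86 in IL-13 KO and -0.81 to 0.39 in wild type.

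Junb, a Jun relative that is a weaker activator than c-Jun, read 176, 169 and 175 in IL-13 KO HDM lungs, against 152, 148 and 111 in IL-13 KO PBS lungs. These groups did not overlap, but the log2 change of 0.34 ± 0.18 did not pass (SE, limma adjusted p = 0.298, 95% interval -0.06 to 0.74). In wild type Junb read 179.6, 135 and 147 after HDM, against 135, 114 and 170.2 after PBS, with overlap (95% interval -0.26 to 0.54).

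Egr1, a zinc finger transcription factor of the growth response, and Nr4a1, an orphan nuclear receptor also called Nur77, did not pass the test either. Egr1 averaged 275 ± 7.08 in IL-13 KO HDM, 291 ± 44.8 in IL-13 KO PBS, 253 ± 44.1 in wild-type HDM and 288 ± 46.1 in wild-type PBS samples (SD, n = 3 each). The groups overlapped, and its 95% interval was -0.42 to 0.28 in IL-13 KO and -0.54 to 0.17 in wild type. Nr4a1 read 135, 209 and 153 in IL-13 KO HDM lungs, against 178, 182 and 183 in IL-13 KO PBS lungs (log2 change -0.14, 95% interval -0.59 to 0.30). It read 144, 167 and 112 in wild-type HDM lungs, against 159, 202 and 243 in wild-type PBS lungs, and the groups overlapped in both genotypes. Its wild-type log2 change of -0.48 ± 0.20 was below an unadjusted p of 0.05 but did not pass (SE, limma adjusted p = 0.198, 95% interval -0.93 to -0.04).

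**Figure D2:**
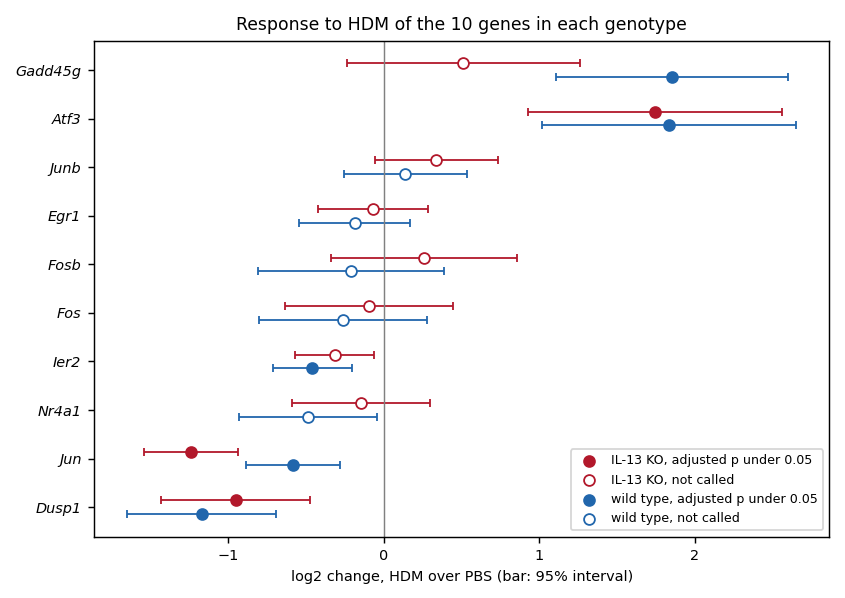
Log2 change of the 10 genes between HDM and PBS lungs in IL-13 KO (red) and in wild type (blue), with 95% intervals. Filled points passed an adjusted p of 0.05. The points of Gadd45g (0.51 in IL-13 KO, 1.85 in wild type) and Jun (-1.24 in IL-13 KO, -0.58 in wild type) lie farthest apart between the genotypes. Those of Atf3 lie close together (1.74 in IL-13 KO, 1.83 in wild type). Jun is drawn by its brighter probe set, and its other probe set, not drawn, gave -0.71 in IL-13 KO and -0.66 in wild type.

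Whether the response to HDM differed between the genotypes was tested as the HDM change in IL-13 KO minus that in wild type. None of the 10 genes passed by limma, where 0.159% of all genes did. Of all 31496 probe sets 1797 had an unadjusted limma p under 0.05, as did 2 of the 10 genes. One was Jun by its brighter probe set, with a difference of -0.66 ± 0.20 on the log2 scale (SE, 95% interval -1.08 to -0.23, limma adjusted p = 0.653). The other was Gadd45g, with -1.34 ± 0.49 (SE, 95% interval -2.40 to -0.28, limma adjusted p = 0.779). The 2 Jun probe sets gave different answers here, since the difference by the other one was -0.05 ± 0.16 (limma adjusted p = 0.99, 95% interval -0.39 to 0.29). For Dusp1 the difference was 0.22 (95% interval -0.46 to 0.89), for Atf3 -0.09 (-1.24 to 1.06) and for Ier2 0.14 (-0.21 to 0.50). The absence of the Gadd45g and Ier2 calls in IL-13 KO is thus not shown to be a difference between the genotypes.

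The genotypes were also set against each other within each treatment, with samples that the HDM comparisons share. After PBS none of the 10 genes passed by limma, where 0.0207% of all genes did. Of all 31496 probe sets 2143 had an unadjusted limma p under 0.05, as did 1 of the 10 genes. That was Jun by its brighter probe set, with a mean of 992 ± 155 in IL-13 KO and 796 ± 56.4 in wild type (SD, n = 3 each, log2 change 0.31, limma adjusted p = 0.727). Gadd45g averaged 52.9 ± 18.4 in IL-13 KO PBS and 32.8 ± 17.1 in wild-type PBS lungs (limma adjusted p = 0.771, 95% interval of the log2 change -0.09 to 1.41).

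After HDM none of the 10 genes passed either, where 0.67% of all genes did. Of all 31496 probe sets 2677 had an unadjusted limma p under 0.05, as did 1 of the 10 genes. Every IL-13 KO HDM sample lay below every wild-type HDM sample in Atf3, Gadd45g and Jun, for Jun by its brighter probe set only. How often all genes show such a separation was not counted. Jun averaged 413 ± 18.7 in IL-13 KO HDM and 533 ± 81.8 in wild-type HDM lungs by its brighter probe set (SD, n = 3 each, log2 change -0.35, limma adjusted p = 0.494, 95% interval -0.65 to -0.05). Atf3 averaged 99.3 ± 10.7 in IL-13 KO HDM and 166 ± 58.2 in wild-type HDM lungs (log2 change -0.65, limma adjusted p = 0.704, 95% interval -1.47 to 0.16). Gadd45g averaged 76.3 ± 11.7 in IL-13 KO HDM and 126 ± 17.7 in wild-type HDM lungs (log2 change -0.68, limma adjusted p = 0.643, 95% interval -1.42 to 0.07). Dusp1 was close in both, with 559 ± 127 in IL-13 KO HDM and 557 ± 153 in wild-type HDM lungs (95% interval of the log2 change -0.46 to 0.49).

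The genes differed in how steady they were among replicates. Within groups the SD on the log2 scale was 0.12 for Ier2 and 0.17 for Jun, below the median of 0.23 over all genes. It was 0.47 for Gadd45g and 0.52 for Atf3, at percentiles 89.5 and 91.8 of all genes. By mean log2 signal Gadd45g and Atf3 were dim, at percentiles 13.7 and 14.6, and Ier2 and Jun bright, at 80.8 and 88.8. The part of signal level in these SDs was not tested. The share of variance that lay between the 4 groups was 92.4% for Jun, 83.2% for Atf3, 81.6% for Dusp1, 80.8% for Ier2 and 76.1% for Gadd45g. It was 42.7% for Nr4a1, 38.5% for Junb, 19.7% for Egr1, 17.8% for Fosb and 10.8% for Fos, against a median of 41.5% over all genes. Wild-type HDM replicate 3 had the lowest signal of all 12 samples for 4 of the 11 probe sets, those of Fos, Egr1, Dusp1 and Nr4a1. Wild-type PBS replicate 3 had the highest signal of Fos, Fosb and Nr4a1. The 5 other genes whose pattern over the 12 samples was most like the mean standardised log2 signal of the 10 were Klhl17, Tor4a, Dll4, Phlda3 and Fem1a. Their Pearson correlations of 0.84 to 0.85 are given as a description of likeness and were the highest of all genes. The 10 genes did not share 1 pattern, since the correlations of their pairs ran from -0.80 to 0.78 with a median of 0.11. Their mean was highest in wild-type PBS replicate 3 (0.71) and lowest in wild-type HDM replicate 3 (-0.77).

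Other genes of the same pathways were read from 6 lists, which held 93 tested genes outside the 10. In IL-13 KO 9 of the 93 were higher (9.68%, against 5.65% of all genes) and 4 lower (4.3%, against 5.3% of all genes) after HDM. In wild type 10 were higher and 10 lower (10.8% each, against 5.35% and 5.14% of all genes). The lists too were chosen with earlier results of these data known, so their shares are a description and not a test. The counts per list that follow rest on 12 to 29 genes and are to be read against these shares of all genes. Among 14 other immediate early transcription factors, 2 were higher in IL-13 KO and none was lower. They were Egr2 (log2 change 0.90, limma adjusted p = 0.0208), a relative of Egr1, and the nuclear protein Csrnp1 (0.90, limma adjusted p = 0.0225). In wild type 3 of the 14 were higher, Egr2 (1.39, limma adjusted p = 0.00165), Egr3 (0.94, limma adjusted p = 0.0293) and Bhlhe40, a repressor (1.21, limma adjusted p = 0.00376). Of the 2 that were lower there, the Kruppel-like factor Klf4 changed more (-0.89, limma adjusted p = 0.0109). Egr2 averaged 85.8 in IL-13 KO HDM, 42.7 in IL-13 KO PBS, 119 in wild-type HDM and 40.5 in wild-type PBS samples, while its relative Egr1 did not pass the test in either genotype.

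Among 29 other immediate early effectors, 2 were higher and 3 lower in IL-13 KO. Of these 5 called genes, the largest changes were those of Rgs1, which dampens G protein signals in leukocytes (1.20), Ier3, an immediate early gene of survival and stress (-0.86), Ccn2, a matrix growth factor (-0.84), and Tnfaip3, an inhibitor of NF-kappaB signalling (0.64). In wild type 4 of the 29 were higher and 4 lower, the largest changes among the called genes being Rgs1 at 1.18, Thbs1, the matrix protein thrombospondin 1, at 1.12, Errfi1, a feedback inhibitor of the EGF receptor, at -1.03 and Socs3, an inhibitor of cytokine receptor signals, at 0.84. Between the genotypes after HDM, 2 of the 93 genes passed (2.15%, against 0.67% of all genes), both from this list and both lower in IL-13 KO. Thbs1 averaged 139.5 in IL-13 KO HDM and 383 in wild-type HDM lungs (log2 change -1.45, limma adjusted p = 0.00455). Ccn2 averaged 481 in IL-13 KO HDM and 1135 in wild-type HDM lungs (log2 change -1.23, limma adjusted p = 0.00482). Smooth muscle markers moved with these genes, with a summed signal of 1960 to 2173 in IL-13 KO HDM and 4948 to 5682 in wild-type HDM samples (5 of 6 markers called lower in IL-13 KO), and their part was not tested.

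Of 12 heat shock and protein damage genes, 2 were higher in IL-13 KO, the mitochondrial co-chaperonin Hspe1 (1.0) and the chaperone of the endoplasmic reticulum Hspa5 (0.44), and none was lower. In wild type Hspe1 (0.79) and Hspa5 (0.55) were higher and the co-chaperone Dnajb1 (-0.69) was lower. Of 14 genes of the integrated and oxidative stress responses, 1 was higher in IL-13 KO, the mTOR inhibitor Ddit4 (0.56). None passed in wild type, where the smallest p-values were those of Hmox1, heme oxygenase 1 (log2 change 0.91, limma adjusted p = 0.0558), and Gclm, a subunit of the enzyme that starts glutathione synthesis (-0.50, limma adjusted p = 0.128).

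Dusp1 also belongs to the list of glucocorticoid response genes, whose 12 other members held 2 higher and 2 lower genes in IL-13 KO. The metallothioneins Mt2 (1.38) and Mt1 (0.91) were higher there, and the Kruppel-like factor Klf9 (-0.98) and Errfi1 (-0.63) were lower. In wild type 1 was higher, Mt2 (0.75), and 3 were lower, Errfi1 (-1.03), Tsc22d3, the glucocorticoid-induced leucine zipper (-0.93), and Klf9 (-0.79). Of 14 genes of the ERK, SRF and CREB pathway, none passed in IL-13 KO, where Elk4, a partner of SRF, had the smallest p (-0.57, limma adjusted p = 0.0649), and the p38 kinase Mapk14 was lower in wild type (-0.50). None of the 93 genes passed in the test of the difference in HDM response or between the genotypes after PBS. The smallest unadjusted p for the difference in response was that of Ccn2 (-1.03 ± 0.23, SE, limma adjusted p = 0.317), and after PBS that of Mt2 (-0.61 ± 0.13, SE, limma adjusted p = 0.293).

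**Figure D3:**
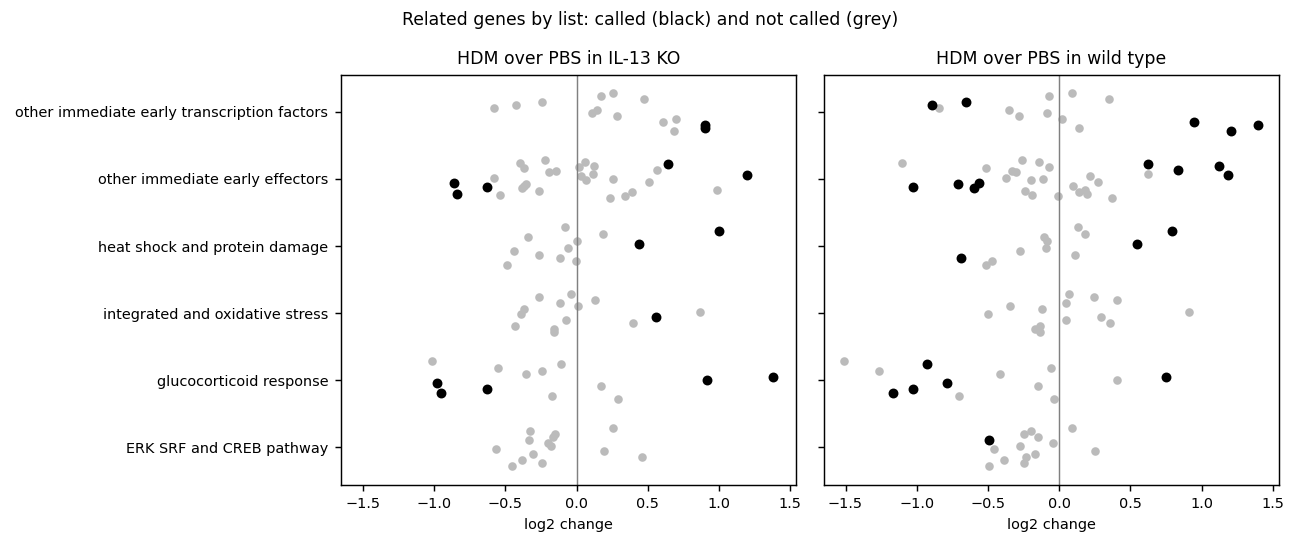
Log2 change between HDM and PBS of each tested gene of the 6 lists of related genes, in IL-13 KO (left) and wild type (right). Black points passed an adjusted p of 0.05 and grey points did not, Dusp1 is shown in the glucocorticoid response list, and each list holds points on both sides of 0.

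In bulk tissue, fewer cells of a type and less RNA of a gene per cell cannot be told apart, and cell type markers moved together with the genes above. The summed signal of 6 endothelium markers was 4318 to 4545 in IL-13 KO HDM, against 6623 to 7471 in IL-13 KO PBS samples, and 3936 to 4621 in wild-type HDM, against 6796 to 7605 in wild-type PBS samples. It was thus lower after HDM without overlap, as were Dusp1 and Jun, with 5 of the 6 markers lower in IL-13 KO and 6 of 6 in wild type. The macrophage markers summed to 2960 to 3273 in IL-13 KO HDM, against 1183 to 1395 in IL-13 KO PBS samples, and 3443 to 4431 in wild-type HDM, against 1010.0 to 1525 in wild-type PBS samples, higher after HDM as was Atf3 (4 of 6 markers called higher in each genotype). Markers of T and B cells were higher (5 of 7 in each genotype), erythroid markers were lower (2 of 2 tested in IL-13 KO, 1 of 2 in wild type), and none of 6 neutrophil markers passed. Cardiac muscle markers summed to 1104 to 1471 in IL-13 KO HDM, against 1956 to 3612 in IL-13 KO PBS samples, and 1277 to 1615 in wild-type HDM, against 2215 to 2667 in wild-type PBS samples, lower after HDM without overlap as were Dusp1 and Jun (4 of 6 markers called lower in IL-13 KO, 3 of 6 in wild type). Smooth muscle markers summed to 1960 to 2173 in IL-13 KO HDM, against 2301 to 2922 in IL-13 KO PBS samples (2 of 6 called lower), and 4948 to 5682 in wild-type HDM, against 2122 to 2726 in wild-type PBS samples (4 of 6 called higher). For 4 of these 6 markers the difference in HDM response between the genotypes was itself called. Gadd45g was also called higher in wild type, but its difference in response was not called (limma adjusted p = 0.779). Club cell markers were called lower in wild type (2 of 3, none in IL-13 KO), and so were some alveolar epithelium markers (3 of 8, and 1 of 8 in IL-13 KO). The part of these cell types in the changes of the 10 genes was not tested.

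Skeletal muscle signal and RNA integrity were examined in the same way. Leaving out the 3 samples rich in skeletal muscle markers keeps 1 wild-type HDM sample, which is assumed to vary like the other groups. In that fit the wild-type log2 change of Dusp1 was -1.49 and kept its call (limma adjusted p = 0.0197). Those of Jun (-0.81, limma adjusted p = 0.0627, and -0.68, limma adjusted p = 0.0669, by the other probe set), Gadd45g (2.29, limma adjusted p = 0.053), Atf3 (1.79, limma adjusted p = 0.151) and Ier2 (-0.52, limma adjusted p = 0.194) kept their direction and lost the call. Without IL-13 KO HDM replicate 1 and wild-type PBS replicate 2, the samples with the lowest actin ratio, Atf3 in IL-13 KO (1.67, limma adjusted p = 0.0589) and Jun in wild type (-0.62, limma adjusted p = 0.0696) lost the call. IL-13 KO HDM and PBS samples did not overlap in the actin ratio but overlapped in the GAPDH ratio. The part of RNA integrity in the IL-13 KO changes was not tested further.

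**Figure D4:**
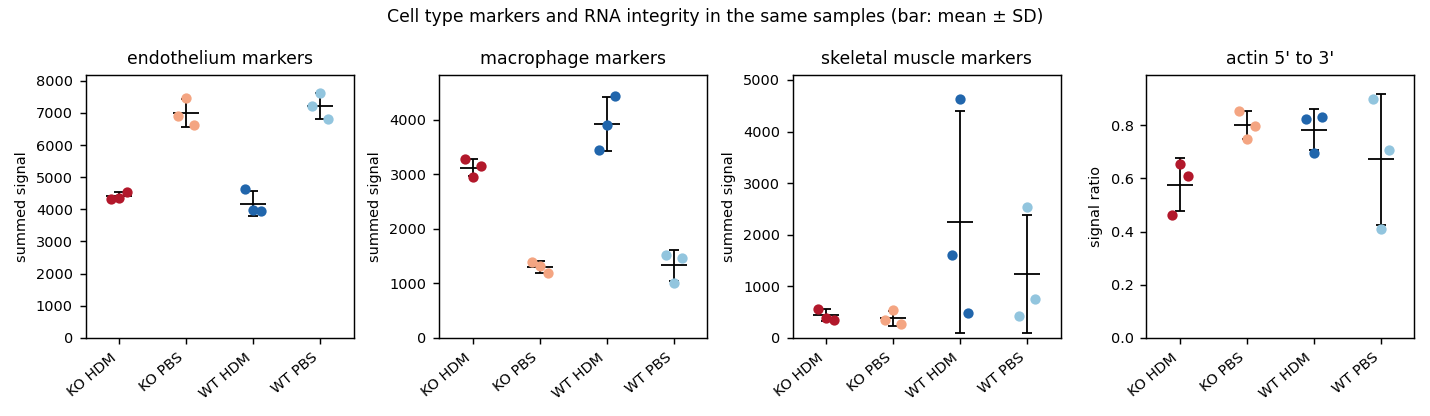
Summed signal of the endothelium, macrophage and skeletal muscle markers and the 5′ to 3′ actin signal ratio in each of the 12 samples, by group, with a bar at the mean and whiskers of 1 SD (n = 3). Endothelium markers are lower and macrophage markers higher in the HDM samples of both genotypes, skeletal muscle signal reaches 4634 in a wild-type HDM sample, and the actin ratio of IL-13 KO HDM samples is 0.464 to 0.656.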

How the data were processed

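Total RNA of lung from 12 samples was hybridised to 24 arrays, a pair (set A and set B) per sample. The deposited values are linear intensities, 1 per probe set and array; the sources used here do not name the software. The values show that the authors scaled each array to a trimmed mean of 150 (2% off each end), and this scaling was kept. No depth applies to arrays, and their number limits the precision. Intensities were tested as log2(intensity + 7) on set A and log2(intensity + 11) on set B, after leaving out control probe sets, probe sets whose mean over the 12 samples was under 32 (set A) or 39.2 (set B), and the set B copies of 100 probe sets present on both sets.

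R 4.3.3 and limma 3.58.1 fitted the 4 groups over all 12 samples (lmFit, then eBayes with an intensity trend), with Benjamini-Hochberg adjustment over 31496 probe sets, and 5 comparisons were read from it. The fit was tested on simulated data with noise drawn separately for each value. Such data hold no effects shared by the probe sets of a sample, so they do not vouch for the calls made here. A gene was represented by its single-gene probe set with the highest mean. The 10 genes and all lists were chosen with earlier results of these data known. All 10 were named; each other list gave at most 4 called genes by size of change (with no call, at most 2 by p), and 5 genes were named for their similar pattern. Alternatives were other pseudocounts (1, 32), no filter or a filter at the median, quantile normalization, no intensity trend, only the groups compared, a replicate block, leaving out samples, and the mean of a gene's probe sets. Promoters are RefSeq's. Pathway proteins and detection calls were not used here.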

Additional observations from a re-analysis of the deposited data

How the results depend on the processing

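Direction and call held for most of the values of the 10 genes, counting those that were not called. Of the calls, only Jun in IL-13 KO (both probe sets) and Dusp1 in wild type were kept under every alternative that could be computed. Without an intensity trend the wild-type calls of Jun (brighter probe set) and Ier2 were lost (limma adjusted p = 0.0515 and 0.0679). With only the groups compared both were lost too (limma adjusted p = 0.0725 and 0.094). The labels do not say whether the replicate numbers pair the samples. Of 18 same-number pairs of deviations 1 correlated above 0.1 (range -0.0885 to 0.171). Pairs of unlike number were not read beside them, so pairing is not settled. With the replicate number as a replicate block the call of Ier2 in wild type was lost (limma adjusted p = 0.051) and the probe sets called for the difference in HDM response were 11 in place of 27. Genes called among the 10 in wild type (5) were 3 with probe sets under the median left out, which drops Atf3, Gadd45g and Fosb, 3 without an intensity trend, 3 with only the groups compared and 1 once the 3 muscle-positive samples were left out; they were 3 to 5 leaving out 1 sample each, 2 to 3 in IL-13 KO (3), and 0 in the other comparisons. Probe sets called in wild type (2426) were 1171 with only the groups compared, 979 without the muscle samples and 1407 without the samples of lowest actin ratio (1387 to 2311 leaving out 1 sample each), and in IL-13 KO (2696) 1788 without the low-actin samples (1549 to 2807). For the difference in response (27) they were 16 with a pseudocount of 1, 17 with probe sets under the median left out, 17 without a trend, 1 without the muscle samples and 2 without those of lowest actin ratio (6 to 19). Between the genotypes after PBS (12) they were 2 with only the groups compared, 5 and 6 without the muscle and the low-actin samples (6 to 20), and after HDM (144) 30 and 66 (59 to 153). Sign changes touched only uncalled log2 changes: without the muscle samples Junb in wild type was -0.040, and after PBS Egr1 -0.11 and the other Jun probe set 0.0039, which without the low-actin samples were -0.11 and 0.0039. Without the low-actin samples Dusp1 was -0.029 for the difference in response and -0.10 between genotypes after HDM. A pseudocount of 1 gave Atf3 0.027 for the difference in response, and quantile normalization Egr1 -0.00059 after PBS and Dusp1 -0.022 after HDM. Leaving out 1 sample each gave, in IL-13 KO, Fos -0.27 to 0.053 and Egr1 -0.14 to 0.049; for the difference in response, Atf3 -0.49 to 0.34, Fos -0.048 to 0.41, the other Jun probe set -0.11 to 0.032 and Dusp1 -0.0054 to 0.42; after PBS, Egr1 -0.11 to 0.12, Fos -0.32 to 0.14, Junb -0.15 to 0.12, the other Jun probe set -0.14 to 0.0039 and Nr4a1 -0.28 to 0.017; and after HDM, Dusp1 -0.21 to 0.22, Fos -0.11 to 0.19 and Ier2 -0.054 to 0.12. The cause of these shifts was not tested. Only the groups compared could not be fitted for the difference in response, which needs all 4. Signals near the low limit (Fosb, and Atf3 and Gadd45g after PBS) limit the precision.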

Other observations

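Mast cell and eosinophil markers were higher after HDM in both genotypes, with 3 of 5 tested markers called in each. Their summed signal was 846 to 1010 in IL-13 KO HDM, against 316 to 423 in IL-13 KO PBS samples, and 484 to 609.8 in wild-type HDM, against 280.4 to 354 in wild-type PBS samples. Of 3 club cell markers, 1 was higher in IL-13 KO after HDM, the secretoglobin Scgb3a2, which averaged 4331 in IL-13 KO HDM and 1939.5 in wild-type HDM lungs (log2 change 1.16, limma adjusted p = 0.00042). Aqp5, a water channel of the alveolar type I cell, averaged 468 in IL-13 KO HDM and 991 in IL-13 KO PBS lungs (limma adjusted p = 0.000153). It averaged 336 in wild-type HDM and 790 in wild-type PBS lungs (limma adjusted p = 5.39e-05). Only 1 of the 8 alveolar epithelium markers, Aqp5, was called lower in IL-13 KO, where the median log2 change of the 8 was -0.05. In wild type 3 of the 8 were called lower, with a median of -0.24.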
